A study of Arabidopsis thaliana with 4 samples.

Results

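The transcripts described here were raised in 35S::CBF2 plants from a signal in the lower range of the array in wild type. They are the gene probe sets with both wild type signals under 60, both 35S::CBF2 signals at 60 or more, and the lower 35S::CBF2 signal at least 2 times the higher wild type signal. The limits apply to the linear signals as deposited. Of 22746 gene probe sets 67 met these limits, 9 of them were left out by name, and 58 remained. The members were thus chosen by the measured signals of all 4 arrays, and the difference between the groups is given below as a description, without a test.

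CBF2 belongs to the CBF/DREB1 transcription factors, proteins of the AP2/ERF class that plants make soon after a fall in temperature. These factors bind a short promoter element, the C-repeat, and switch on a set of genes known as the CBF regulon. In Arabidopsis the regulon is known for proteins that protect membranes, for enzymes of sugar and lipid metabolism, and for a gain in freezing tolerance. A transgene behind the 35S promoter, a viral promoter active in most plant tissues, supplies the factor without cold.

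RNA came from whole Arabidopsis thaliana plants, 10 days old, kept at 24 °C in continuous light after stratification for 4 days at 4 °C. The wild type group was Ws-2 with 2 arrays, and the other group, with 2 arrays, was an overexpressor of CBF2 behind the 35S promoter. Both transgenic samples are called E2 in their protocol text, while one title reads E24, and whether they are 1 line or 2 cannot be told apart. The labels do not name the accession that carries the transgene. Each sample was made from plates of about 100 plants, and nothing states separate cultures for the samples of a group. The spread between arrays may therefore be technical. The signal of CBF2 itself was not analysed here, so the label was not checked on the transgene.

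Every array had a median signal between 39.6 and 42.4 over the gene probe sets. Of the listed leaf photosynthesis markers 4 of 8 had a named probe set, and their summed signal ranged from 19394 to 20261 in wild type and from 17282 to 20556 in 35S::CBF2. For root markers it was 3 of 8, with sums of 1555 to 1948 in wild type and 1486 to 2133 in 35S::CBF2. Seed and flower markers had 0 named probe sets. In whole plants, more RNA per cell and more cells of the type that makes a transcript cannot be told apart.

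The 58 probe sets moved from the middle or below to the upper part of the range. In wild type their signals lay between 1.14 and 58.9 on replicate 1, with a median of 29.8, and between 0.729 and 59.4 on replicate 2, with a median of 31.0. On the 35S::CBF2 arrays they lay between 62.4 and 688 on replicate 1 (median 116) and between 70.3 and 638 on replicate 2 (median 136). Ranked among all gene probe sets by geometric mean, their median percentile was 42.0 in wild type and 77.5 in 35S::CBF2. In 35S::CBF2, 39 of the 58 stood above the 75th percentile and 4 above the 90th, so most reached a moderate signal and few a high one.

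Few of them had both wild type signals within the range of control probe sets. In 4 of the 58, 3 of them named, both wild type signals lay below 14.5, the highest signal of 27 bacterial control probe sets on any array. That level serves as a floor. A further 8 had 1 wild type signal below it, and in the other 46 both wild type arrays were above it. Detection calls were not used, so a signal above the floor is not by itself shown to come from the transcript.

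**Figure D1:**
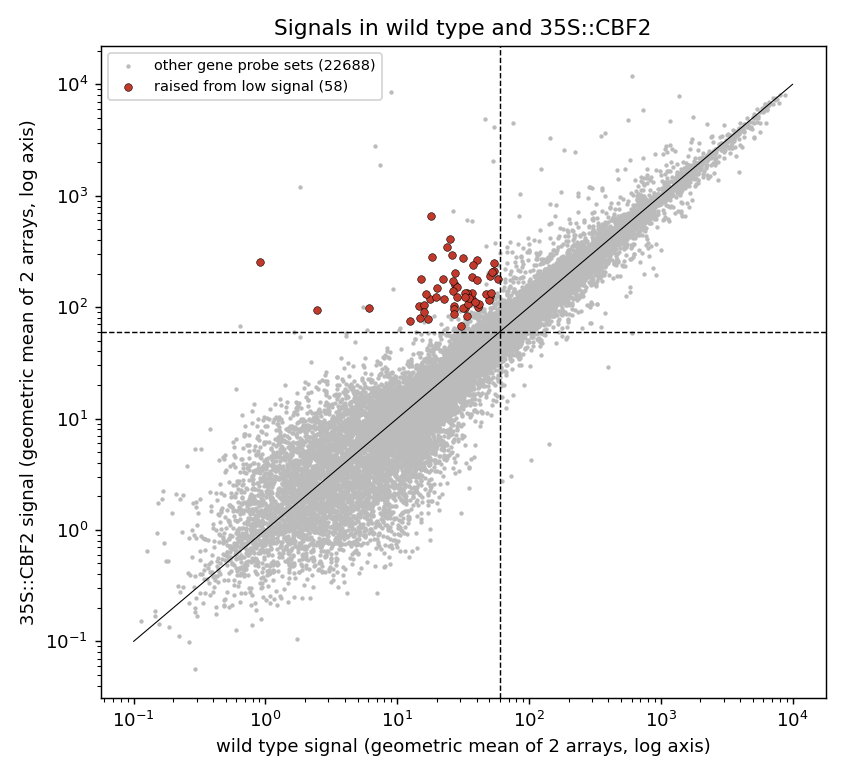
Each point is 1 gene probe set, with the geometric mean signal of the 2 wild type arrays on the x axis and of the 2 35S::CBF2 arrays on the y axis, both on log axes. The 58 probe sets (red) lie left of and above the dashed lines at a signal of 60, with 35S::CBF2 geometric means of 68.0 to 662; the solid line marks equal signals.

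The geometric mean in 35S::CBF2 over that in wild type, called the fold, had a median of 4.79 over the 58 and a lowest value of 2.22. Where each signal under the floor was set to the floor, the median fold came to 4.43. Over all 22746 gene probe sets the median fold was 0.964. The lower 35S::CBF2 signal was at least 4 times the higher wild type signal, or the floor where that was higher, in 22 probe sets, at least 8 times in 6 and at least 16 times in 1, AT1G51090. Among the 12744 gene probe sets with both wild type signals under 60, 16.4% had both 35S::CBF2 arrays above both wild type arrays, and 0.526% met the limits of signal and ratio.

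Of the 58 probe sets 32 carried exactly 1 gene in the annotation and 26 were not listed there. Of those 26, 25 had folds of 2.22 to 16.1, and 1, with both wild type signals below the floor, was at least 6.51-fold higher. Their median fold was 4.90. Their signals ran from 1.44 to 58.9 in wild type and from 62.4 to 421 in 35S::CBF2. The 32 named ones had a median fold of 4.79. Every gene named below is represented by 1 probe set.

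**Figure D2:**
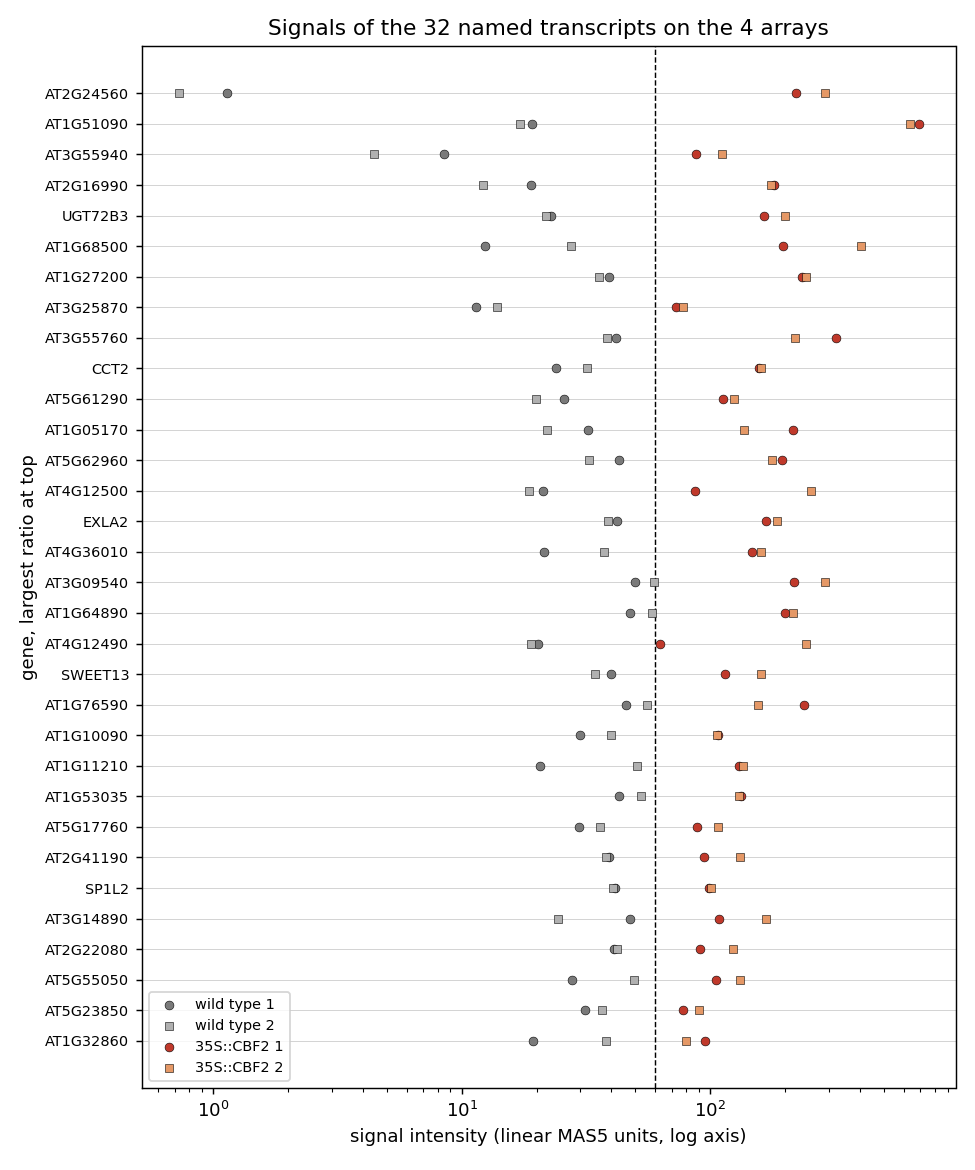
Signals of the 32 named genes on the 4 arrays, on a log axis, ordered from top to bottom by the ratio of the lower 35S::CBF2 to the higher wild type signal. Grey symbols are wild type, red and orange symbols 35S::CBF2, and the dashed line marks a signal of 60; AT2G24560 has wild type signals of 1.14 and 0.729, far to the left of all others.

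Lipid and membrane genes had 6 named members, 2 of them with both wild type signals below the floor. AT2G24560, which encodes a GDSL-type lipase, an esterase class that acts on lipids and other esters, gave 1.14 and 0.729 in wild type, against 222 and 288 in 35S::CBF2. Both wild type values were below the floor, so the fold is a bound, at least 17.5-fold higher with the transgene. AT3G55940, a phosphoinositide-specific phospholipase C, which cleaves membrane phosphoinositides in signalling, had 8.50 and 4.43 in wild type, against 87.2 and 111 with the transgene, at least 6.79-fold higher. These 2 genes had signals from near background to a moderate level, and the low wild type values kept both out of the test over the array.

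CCT2 encodes a phosphorylcholine cytidylyl transferase, the enzyme of the regulatory step in making phosphatidylcholine, a main membrane lipid. It gave 23.8 and 32.1 in wild type, against 157 and 160 in 35S::CBF2, a 5.75-fold difference (log2 difference 2.52 ± 0.21, SE, n = 2 per group). A second GDSL-type lipase gene, AT5G55050, had a geometric mean of 37.0 in wild type and 118 in 35S::CBF2. The 35S::CBF2 arrays agreed closely for CCT2, with the wild type arrays well below.

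AT4G12490 and AT4G12500 encode small proteins of the lipid transfer class and lie in the AZI1/EARLI1 gene cluster, with 1 protein-coding gene between them. AT4G12500 had 21.3 and 18.7 in wild type, against 86.6 and 254 in 35S::CBF2 (log2 difference 2.89 ± 0.78). AT4G12490 had 20.3 and 19.0 in wild type, against 62.9 and 243 in 35S::CBF2 (2.66 ± 0.97). In both genes the wild type arrays were close together, while 35S::CBF2 replicate 2 was far above replicate 1. The genes of this cluster are similar in sequence, so 1 transcript may add to the signal of another's probe set. With replicate 1 of 35S::CBF2 set against wild type alone, AT4G12490 stood at 3.10 times the higher wild type signal.

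Transport and metal binding had 5 named genes, with folds of 2.88 to 36.5. AT1G51090, a protein with a heavy-metal-associated domain, had 19.2 and 17.2 in wild type, against 688 and 638 in 35S::CBF2, a 36.5-fold difference (log2 difference 5.19 ± 0.10). AT2G16990, of the major facilitator superfamily of membrane carriers, had 19.1 and 12.1 in wild type, against 180 and 176 in 35S::CBF2, an 11.7-fold difference. AT1G64890, another carrier of that superfamily, started higher, at 47.5 and 58.4, and reached 199 and 214 (3.93-fold). In these 3 genes the 35S::CBF2 arrays were nearly equal and well above both wild type arrays.

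SWEET13, a sugar exporter of the plasma membrane, had 39.8 and 34.2 in wild type, against 114 and 159 in 35S::CBF2 (log2 difference 1.87 ± 0.26). AT2G41190, an amino acid transporter family gene, had a geometric mean of 38.7 in wild type and 112 in 35S::CBF2, a 2.88-fold difference. Both started at a level well above the floor.

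Genes for glycosyl transfer, starch and the cell wall had 8 named members, with folds of 2.47 to 8.07. UGT72B3, a glycosyltransferase that adds glucose to small molecules, had 22.9 and 21.8 in wild type, against 164 and 199 in 35S::CBF2, an 8.07-fold difference (log2 difference 3.01 ± 0.15). AT3G55760, known as LESV, a protein of starch granules in leaves, had 41.7 and 38.5 in wild type, against 320 and 220 in 35S::CBF2 (2.72 ± 0.28). The groups were far apart in both genes, with replicate 1 the brighter 35S::CBF2 array for AT3G55760 and replicate 2 for UGT72B3.

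Of the glycosyltransferase-type genes, AT1G27200 had 39.3 and 35.7 in wild type, against 234 and 243 in 35S::CBF2, a 6.37-fold difference. AT1G05170, of the galactosyltransferase family, had 32.3 and 22.0 in wild type, against 214 and 136 in 35S::CBF2, with a log2 difference of 2.68 ± 0.43. AT5G23850 had a smaller fold, 2.47. AT1G27200 was even between the arrays of each group, and AT1G05170 was brighter on replicate 1 in both groups.

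Among the wall genes, EXLA2, a relative of the expansins, proteins that loosen cell walls, had 42.3 and 38.7 in wild type, against 167 and 186 in 35S::CBF2 (log2 difference 2.12 ± 0.10). AT3G09540, of the pectin lyase-like class, had 49.7 and 59.4 in wild type, against 216 and 290 in 35S::CBF2, a 4.61-fold difference. It had the highest wild type signal of the 58, just under the limit of 60. AT1G32860, a glycoside hydrolase of the beta-1,3-glucanase class that can cut callose, had a fold of 3.21.

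Members of other families followed. AT4G36010, of the thaumatin-like proteins that are related to pathogenesis-related proteins, had 21.4 and 37.5 in wild type, against 147 and 160 in 35S::CBF2. AT5G61290, a flavin-containing monooxygenase family gene, had 25.7 and 19.8 in wild type, against 113 and 125 in 35S::CBF2. AT1G76590, a zinc-binding transcription factor of the PLATZ type, had 45.8 and 55.8 in wild type, against 238 and 155 in 35S::CBF2. The corresponding folds were 5.40, 5.24 and 3.80, and in each gene both 35S::CBF2 arrays lay well clear of wild type.

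AT1G10090, of a membrane protein family named after the dehydration-responsive ERD4, had 29.9 and 39.7 in wild type, against 108 and 106 in 35S::CBF2. SP1L2, a relative of SPIRAL1, which binds microtubules, had the smallest fold of the named genes, 2.44, with the 4 arrays tight within each group (log2 difference 1.28 ± 0.02). AT5G17760, an ATPase of the AAA class, had a fold of 2.99. AT3G14890, which encodes a DNA 3'-phosphoesterase, had a fold of 3.97 with an uneven pair of wild type arrays (SE of the log2 difference 0.58).

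No role is stated here for the remaining 6 named genes. AT1G68500 had 12.4 and 27.6 in wild type, against 195 and 402 in 35S::CBF2, a 15.2-fold difference with a wide error (log2 difference 3.92 ± 0.78). AT3G25870 had 11.4 and 13.8 in wild type, both below the floor, while the transgenic arrays gave 72.9 and 77.9, at least 5.20-fold higher. AT5G62960 had 42.8 and 32.4 in wild type, against 194 and 176 in 35S::CBF2. AT1G68500 was uneven within both groups, while the 35S::CBF2 arrays were close for AT3G25870 and AT5G62960.

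AT1G11210 had 20.7 and 50.8 in wild type, against 131 and 136 in 35S::CBF2, so its fold of 4.11 depends on which wild type array is taken. AT1G53035 had 43.1 and 52.5 in wild type, against 133 and 131 in 35S::CBF2. AT2G22080 had a fold of 2.55.

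The 35S::CBF2 arrays were also set beside each other. The limits keep only probe sets bright on both arrays and so favour even pairs, and these values are a description. Replicate 2 was higher than replicate 1 in 42 of the 58 (72.4%), with a median log2 difference of 0.17. Over all gene probe sets the share was 45.2% and the median -0.06. Between the wild type arrays 29 of the 58 were higher on replicate 2. In the 77 probe sets raised by the same ratio from wild type signals of 60 or more on both arrays, replicate 2 was higher in 53 (68.8%). On 35S::CBF2 replicate 2 the spike-in controls stood at 1.97 times their wild type mean, and on replicate 1 at 0.637 times. Their part in the difference between the 35S::CBF2 arrays was not tested. The title that reads E24 is that of replicate 1, so a difference between lines and one between arrays cannot be told apart.

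In 44 of the 58 (75.9%) the 35S::CBF2 arrays lay within 1.5-fold of each other, beside 67.6% of all gene probe sets, 87.3% of those tested and 92.2% of the 77. In 4 (6.90%) they were 2-fold or more apart, beside 19.3%, 2.38% and 1.30%. The 4 were AT4G12490 (log2 difference, replicate 2 minus 1, of 1.95), AT4G12500 (1.55), AT1G68500 (1.04) and 1 probe set without a name. All were higher on replicate 2. Between the wild type arrays 6 of the 58 (10.3%) were 2-fold or more apart. The share was 18.2% of all gene probe sets and 31.3% of those with both wild type signals under 60. The SD of the difference between the wild type arrays over the 58 was 0.70. Between the 35S::CBF2 arrays, where the limits ask for brighter signals, it was 0.48.

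**Figure D3:**
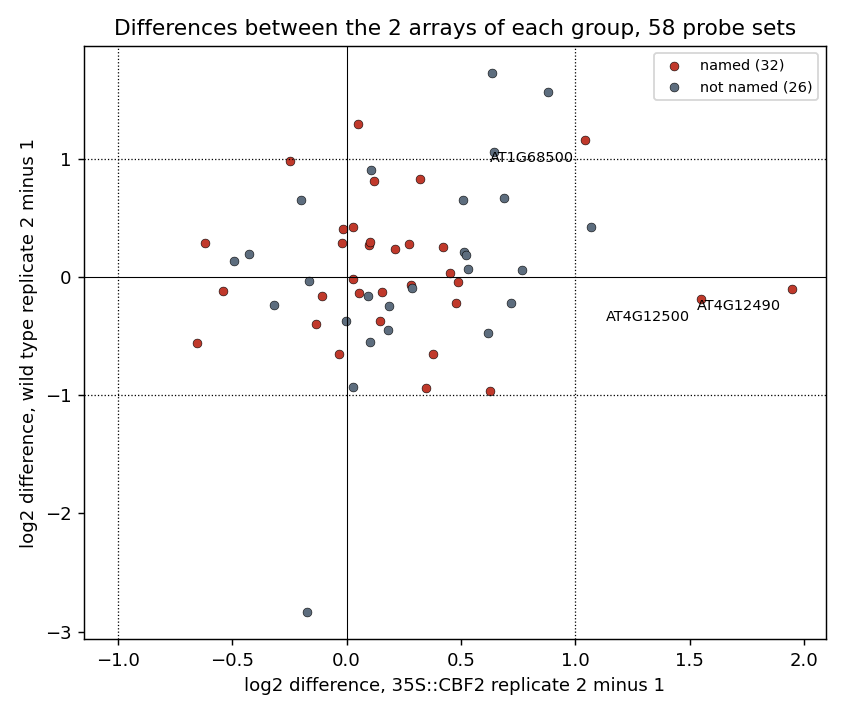
Each point is 1 of the 58 probe sets, with the log2 difference between the 35S::CBF2 arrays on the x axis and between the wild type arrays on the y axis; dotted lines mark 2-fold. AT4G12490 and AT4G12500 lie farthest to the right, at 1.95 and 1.55, and 42 of the 58 points lie right of 0.

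For 5 named genes the symbol gives a numbered family, which allows a look at the other members with a named probe set. The families were taken up with the results known. Probe sets differ in brightness, so only differences between the groups are set side by side. In the limma fit over the array, 2.11% of the 13647 tested probe sets passed as higher in 35S::CBF2 and 1.25% as lower, at an adjusted p under 0.05.

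In the UGT72 family the log2 differences were 0.36 for UGT72E2 and -0.37 for UGT72E1, against 3.01 for UGT72B3. UGT72E3 had signals below the floor on every array. CCT1, the other phosphorylcholine cytidylyl transferase gene, gave 68.1 and 71.5 in wild type, against 94.9 and 84.4 in 35S::CBF2. Its log2 difference was 0.36 ± 0.09, beside 2.52 ± 0.21 for CCT2, and it did not pass (limma, adjusted p = 0.566). That p rests on the error of the fit over the array, not on the SE printed here. In the expansin-like family EXLA1 had a log2 difference of 0.40 ± 0.30, EXLA3 was below the floor on every array, and EXLA2 stood at 2.12 ± 0.10. In the SP1L family, the log2 differences of SP1L3, SP1L4 and SP1L5 lay between -0.18 and 0.48, beside 1.28 for SP1L2. In these 4 families the gene of the set was the one with the largest difference, as its choice by that difference favours, and the difference between family members was not tested.

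The sugar transporters of the SWEET family had 14 named probe sets, of which 8 were tested. SWEET1, SWEET10 and SWEET13 passed as higher and SWEET11 and SWEET16 as lower (limma, adjusted p from 2.21e-04 to 0.0172). SWEET11, a plasma membrane sucrose exporter of leaf veins, had 1048 and 1284 in wild type, against 658 and 532 in 35S::CBF2, a log2 difference of -0.97 ± 0.21. SWEET11 no longer passed when wild type replicate 2 was dropped (adjusted p = 0.0661) or when 35S::CBF2 replicate 2 was (0.0560). SWEET16 failed when either wild type array was dropped (0.0762 for replicate 1, 0.0963 for replicate 2), and also when 35S::CBF2 replicate 2 was (0.0702). Without the intensity trend the adjusted p of SWEET11 was 0.102, and with no filter that of SWEET16 was 0.0938. SWEET10 and SWEET13 met the limits that chose the set, so their calls come from the contrast that selected them and add nothing. SWEET1 did not meet them, and its call held with each array left out. SWEET10, the neighbour of SWEET13 on the chromosome, is one of the 9 probe sets left out by name.

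**Figure D4:**
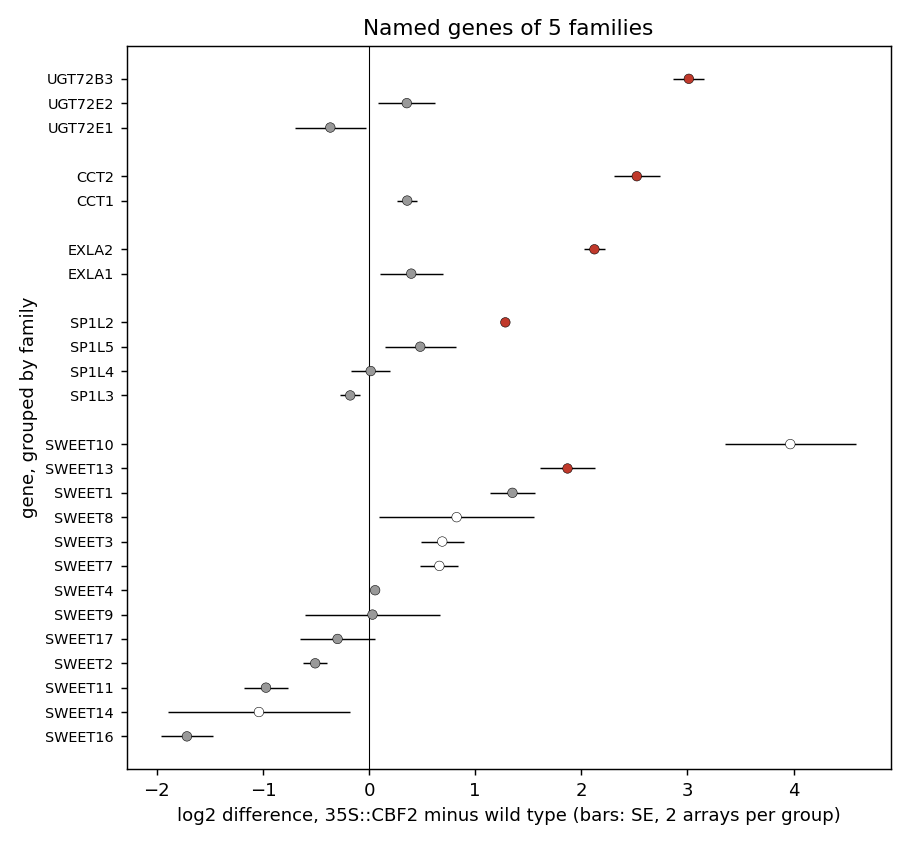
Log2 differences between 35S::CBF2 and wild type, with the SE from 2 arrays per group, for the named genes of 5 families with a signal above the floor on any array. The red points, UGT72B3 (3.01), CCT2 (2.52), EXLA2 (2.12), SP1L2 (1.28) and SWEET13 (1.87), belong to the 58, the others do not, and white points, SWEET10 among them, have a group with both signals below the floor, so that their value is uncertain.

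The genes next to the 32 named ones were also looked up in the gene order. There were 33 named probe sets of such neighbours, and 0 of them belonged to the 58, with 1, SWEET10, left out by name. Their median log2 difference was 0.11, beside -0.05 over all gene probe sets. Of the 19 that were tested, 2 passed as higher (SWEET10 and AT1G76580) and 0 as lower. Over the array 2.11% of the tested probe sets passed as higher and 1.25% as lower. SWEET10 met the limits that chose the set, so nothing is read from its call. AT1G76580, next to AT1G76590, had 83.8 and 73.8 in wild type, against 258 and 253 in 35S::CBF2, a 3.25-fold difference. Beside those 2 pairs, no tested neighbour with a named probe set passed.

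Lists of genes known from cold and related responses place the 58 among them. Most listed genes were not tested because they had no named probe set. The lipid transfer proteins had 3 tested genes of 10 listed, and 2 passed as higher, AT4G12490 and AT4G12500. Both are among the 58 and were chosen by the same contrast, so nothing is read from their calls. The third, AT2G37870, had 12.0 and 25.8 in wild type, against 29.7 and 88.2 in 35S::CBF2 and did not pass (limma, adjusted p = 0.197), but did without 35S::CBF2 replicate 1 (0.0183). The call of AT4G12490 was lost without 35S::CBF2 replicate 2 (0.0790), with no filter on signal (0.0658) and without the intensity trend of the fit (0.0844). The median log2 difference of the 3 was 2.66, the value of AT4G12490 itself, beside -0.04 over all tested probe sets.

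Of the 18 listed CBF-regulated cold genes 5 had a named probe set, and all 5 were tested. Of these 5, 4 passed as higher and 0 are among the 58, and the median log2 difference of the 5 was 5.91. The other listed genes had no named probe set, and 26 of the 58 carry no name. Whether those listed genes are among the 58 cannot be told. Over the array 2.11% of the tested probe sets passed as higher. COR15A and LTI30 met the limits and were left out by name, so nothing is read from their calls. COR15B and COR47 started above 60. For LEA proteins and dehydrins, which protect cells as they lose water, 7 of 15 had a named probe set. Those left untested were dim, and their log2 differences went both ways. The median log2 difference was 0.97 over the 7 and 2.50 over those tested. Of the 7, 3 were tested and all 3 passed as higher. Of these, LTI30 and COR47 are also in the cold list and counted there. The other, AT1G54410, had 2307 and 2204 in wild type, against 4415 and 4396 in 35S::CBF2. Its call ended without the intensity trend (limma, adjusted p = 0.0704). Of the cell wall list 3 of 10 were tested. AT1G48100 and AT3G17130 passed as higher, but both met the limits and were left out by name, so nothing is read from their calls. EXPA8 did not pass, with a log2 difference of -1.08 (limma, adjusted p = 0.147). It passed as lower when wild type replicate 2 was dropped (0.0317) and when 35S::CBF2 replicate 1 was (0.00317). For gibberellin metabolism and DELLA, 3 of 13 were tested and 0 passed. The sugar and raffinose list and that of cold-induced transcription regulators had 1 tested gene each, ATSPS4F and STZ, and neither passed. STZ is also the gene of the cold list that did not pass. The list of abscisic acid genes had 0 named probe sets. Among leaf, root and reference genes 0 of 4, 0 of 3 and 0 of 3 tested genes passed.

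Of the 58, 55 were bright enough to be tested in the fit over the array, and 54 of them passed as higher, where 2.11% of all tested probe sets did. The limits and the fit use the same contrast, so nothing is read from this count. With no filter on signal, where 0.963% of all gene probe sets passed as higher, the count was 52 of 58.

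The limits are points on a continuous range. Just inside the wild type limit lay AT3G09540 at 59.4 and 2 probe sets without a name at 58.9 and 58.5. Just outside it were 3 probe sets without a name, whose higher wild type signals were 60.9, 61.0 and 61.3. The last of these had 4365 and 3898 in 35S::CBF2, so a bright transcript missed the set by 1 wild type array. At the 35S::CBF2 limit, the lower signals were 62.4, 62.9 (AT4G12490) and 64.0 just inside and 59.3, 57.6 (AT2G39710) and 56.6 (AT3G28270) just outside. The ratios closest to 2 were 2.03, 2.03 and 2.06 inside and 1.97, 1.97 and 1.90 outside.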

How the data were processed

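The authors deposited linear signal intensity values, which the submitters' processing notes credit to MAS5, with no version stated there. Each array's trimmed mean was 100.0, so no further scaling was applied. Of the value columns 0 were left unused, and 0 probe sets had equal values on any 2 arrays. The 64 control probe sets were left out. Genes were named from the 2016 annotation of the platform and updated by identifier with the RefSeq gene table of TAIR10.1, which also gave the gene order. It lists 13513 probe sets with 1 gene, 503 with several, and 8730 are not listed.

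Both 35S::CBF2 samples carry the same replicate number and were numbered 1 and 2 in listed order. The fit over the array used limma 3.58.1 in R 4.3.3 on log2 signals (eBayes with trend, two-sided, Benjamini-Hochberg). It took the 13647 probe sets above the 40th percentile of mean log2 signal, a geometric mean above 24.8. A run on simulated signals shuffled the spreads between probe sets, so it did not check the intensity trend. Errors of log2 differences are SE from the 2 arrays per group, and bounds written "at least" are the 35S::CBF2 geometric mean over the floor. The adjusted p-values rest instead on the error of the fit, which shares spread between probe sets, so a small SE need not go with a small p. The number of arrays limits the precision.

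Values on all 4 arrays are given for the 24 named genes with the largest ratio and for members in a list, at a limit, or farthest apart between the 35S::CBF2 arrays. The members, lists, families and functional groups were chosen with earlier results of these data known. The planned search for promoter motifs was not run, since no promoter sequence was used here. Alternatives were other scalings, filters, limits of the rule, an offset before the log, eBayes settings, the title letter as a block and each array left out.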

Additional observations from a re-analysis of the deposited data

Results flagged for a closer look

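The hybridisation spike-in controls lie outside the comparison and were brighter on 1 35S::CBF2 array than on either wild type array. Their geometric mean over 18 probe sets on 35S::CBF2 replicate 2 reached 1.97 times their mean in wild type, against 1.01 and 0.985 on the wild type arrays and 0.637 on 35S::CBF2 replicate 1. The same array was the brighter of the pair for 42 of the 58 transcripts (72.4%), beside 45.2% of all gene probe sets. It was also the brighter for 53 of the 77 probe sets (68.8%) raised by the same ratio from wild type signals of 60 or more. A link between the controls and these shares was not tested.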

How the results depend on the processing

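The number of probe sets that met the limits was 58 after quantile normalization and after median centring, and all 58 were the same ones. It was 58 with a low signal limit of 40, of which 41 were shared with the set described, 65 with a limit of 80 (49 shared), 89 with a ratio of at least 1.5 and 35 with a ratio of at least 3. With 1 array left out, which relaxes the limits, it ranged from 68 to 126, with 94 and 89 without wild type replicates 1 and 2 and 126 without 35S::CBF2 replicate 1. The median log2 difference of the 58 was 2.26, and 1.85 with an offset of 11.7 added before the log, which shrinks differences of low signals by construction; with 1 array left out it ranged from 2.05 to 2.38. Of the 58, 33 passed the fit with a filter at the 60th percentile, where only 33 were tested, and 39 to 54 with 1 array left out, the lowest without 35S::CBF2 replicate 2. The number of probe sets past the threshold over the array was 458, with 205 without the intensity trend and 270 to 605 with 1 array left out, the lowest without 35S::CBF2 replicate 2; the cause was not tested. The lone array was assumed to vary like the other group. Higher probe sets made up 62.9% of these calls and 76.6% without the trend. Leaving out 1 array gave 74.9% where it was wild type replicate 1 and 55.2% where it was replicate 1 of 35S::CBF2. The block on title letters gave 57.5%. The median difference between the 35S::CBF2 arrays over the 58 kept its sign under both other scalings (0.20 and 0.27 against 0.17). The arrays could not be paired by replicate number, because the labels give both 35S::CBF2 samples number 1. The letter in the sample titles, whose meaning the labels do not give, was used as a block instead, and 661 probe sets and 55 of the 58 passed. For 20 genes that the text sets against the fit, 220 comparisons under the alternatives kept the side of the threshold, 11 lost the call, 3 gained it and 0 reversed. With the filter at the 60th percentile SWEET10, SWEET16, AT4G12490, AT4G12500, AT2G37870 and STZ were not tested, so that setting is not counted for them. Motif alternatives were not run. Alternatives of the fit for the 58 that were not planned are the other scalings, the offset, the 60th percentile filter and robust eBayes, chosen after seeing the data.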

Other observations

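The mirror of the limits, with both 35S::CBF2 signals under 60, both wild type signals at 60 or more and the lower wild type signal at least 2 times the higher 35S::CBF2 signal, was met by 14 gene probe sets, against 67 for the limits themselves. The 77 probe sets raised by the same ratio from wild type signals of 60 or more had a median fold of 3.28 and a median 35S::CBF2 signal of 652, against 4.79 and 131 for the 58. The limits ask for brighter signals in the 77, so a gap in signal follows from the choice. The 58 also lack the 9 probe sets left out by name, while the 77 were not trimmed in this way. Nothing is read from the comparison. Near the limits, AT2G39710, of the aspartyl protease family, had 19.8 and 24.7 in wild type, against 58.8 and 57.6 in 35S::CBF2. AT3G28270 had 14.6 and 24.6 in wild type, against 56.6 and 121 in 35S::CBF2. Both were named because they lie just outside the signal limit of 60.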
